A study of Homo sapiens with 6 samples.

Results

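The genes described here lie in a window of chromosome band 2p14 around MEIS1. They were chosen by position: every gene in the count tables that starts between bases 65000000 and 69000000 of chromosome 2 (GRCh38), which gave 66 of 60651 genes. The window itself was picked with the counts of these libraries known, so its levels and the Tet against EtOH values of LINC01798, LINC01829 and MEIS1 are a description and not independent support for one. By the GENCODE annotation 20 of the 66 were protein-coding, 28 were long non-coding RNAs, 13 were pseudogenes and 5 were of other small or unresolved kinds.

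MEIS1 encodes a homeodomain transcription factor of the TALE class, which binds DNA together with PBX and HOX proteins and is known for its roles in blood stem cells, leukemia and the developing nervous system. Long non-coding RNAs are transcripts without a long reading frame, and many start close to a coding gene or run antisense to it. Neuroblastoma is a childhood tumor of the sympathetic nervous system, and gain of the MYCN gene at 2p24, on the same chromosome arm, marks an aggressive form of it.

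The series held 6 total RNA libraries of a human neuroblastoma cell line, 3 labelled EtOH and 3 labelled Tet. The titles name the line IMR575, a knockdown tag calls the EtOH libraries control and the Tet libraries induction, and the protocol text instead describes single clones of SK-N-SH cells that carry a tetracycline-inducible MYCN system and received tetracycline for 5 days. For the line in the titles the paper describes MYCN-amplified cells with a tetracycline-inducible shRNA against MYCN, so that Tet would lower MYCN. Its inducible MYCN expression system is described in SK-N-AS cells. Groups were taken from the titles. The study's methods describe in vitro replicates in general as independent, the labels do not say it of these libraries, and p-values measure the spread between the libraries as they are. Total counts ran from 27933212 to 40497909 per library, so that 3 counts correspond to 0.0741 to 0.107 CPM (counts scaled to library size, with normalization by the trimmed mean of M values).

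MYCN, the gene named by the protocol, did not differ detectably between the groups, at 158, 256 and 156 CPM in the EtOH libraries and 196, 199.9 and 145 CPM in the Tet libraries (log2 fold change −0.07 ± 0.23, SE, edgeR adjusted p = 0.956). DDX1 and NBAS, its neighbors at 2p24, had log2 fold changes of 0.11 and −0.21. The sympathetic neuroblastoma gene GATA3 averaged 225 TPM (counts scaled by gene length and library size), while TH and DBH were near 0. Summed levels of 4 Schwann cell genes stayed between 1.07 and 3.50 TPM and those of 4 leukocyte genes between 0.0841 and 0.821 TPM in every library, and 6 mesenchymal genes ranged from 177 to 315 TPM in EtOH and from 179 to 294 TPM in Tet libraries.

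EtOH replicate 2 stood apart from the other EtOH libraries. On the first principal component, which held 44.7% of the variance, it scored 84.2, while the other EtOH libraries scored −55.0 and −37.0. The Tet libraries scored −1.81, 47.3 and −37.7, so that Tet replicate 2 lay nearest to it. The second component, with 25.7% of the variance, separated the groups. EtOH libraries scored −34.7, −39.1 and −38.9 on it and Tet libraries 26.4, 38.1 and 48.1. EtOH replicate 2 had the lowest LINC01828 and MEIS1 levels. It also had the highest level of all 6 libraries in 11 of the 16 coding members tested. The members described in the comparison are therefore also given without it where their value moves by over 1.5 times or a call changes.

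Expression along the window was concentrated around MEIS1 and in a stretch of non-coding genes on its centromeric side up to ETAA1. The 15 genes from LINC01873 to ETAA1 gave 85.3%, 72.5% and 84.8% of the window's counts in the EtOH libraries and 84.4%, 82.8% and 84.5% in the Tet libraries. The bounds of this block, and of the others named here, were set after the levels were seen. On either side lay stretches with almost no reads. The 13 genes from LINC02934 to MIR4778, on the telomeric side of LINC01873, held 14 to 74 counts in all per library, and the 5 genes from LINC02831 to FBXL12P1, beyond ETAA1, held 2 to 17.

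**Figure D1:**
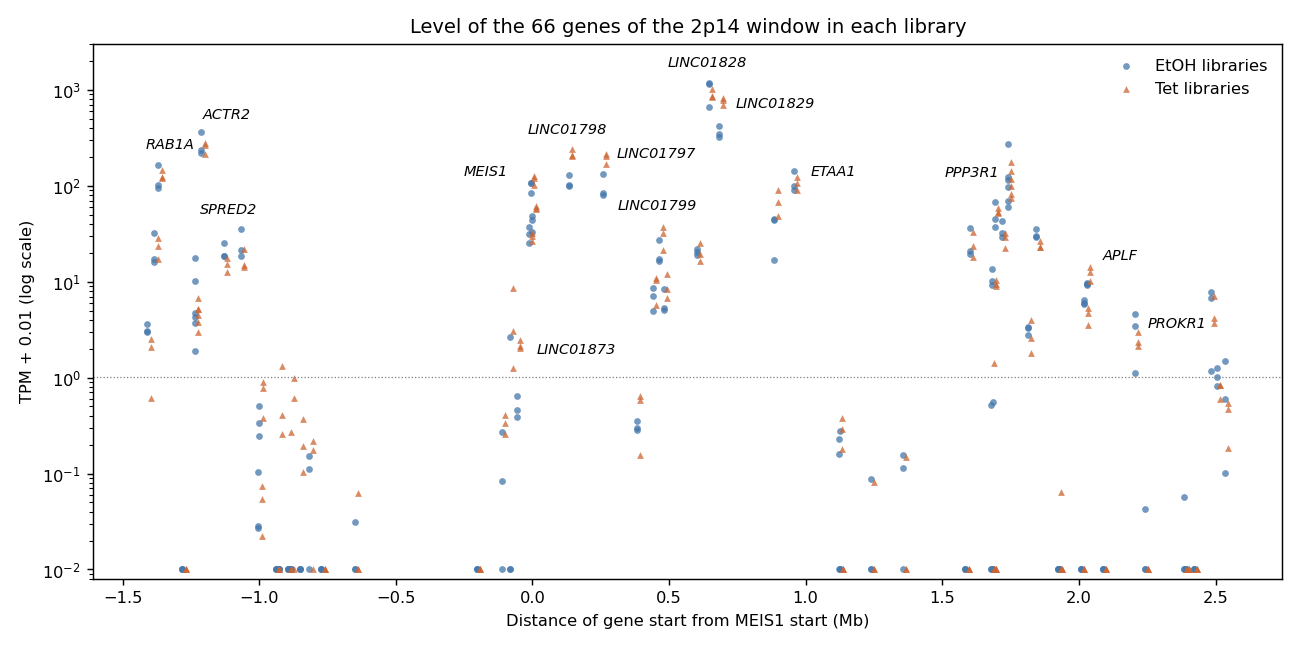
Each point is the level of 1 gene in 1 library (TPM plus 0.01, log scale) against the distance of the gene's start from the start of MEIS1 in Mb, with circles for EtOH and triangles for Tet and a dotted line at 1 TPM. LINC01828 and LINC01829 stand highest at 0.65 and 0.69 Mb. Most genes of the gaps on both sides of the block from LINC01873 to ETAA1 have means below 1 TPM. There is no drop at the telomeric bound itself, where LINC01873 averages 1.34 TPM and MIR4778, just outside, 2.60 TPM.

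Of the 66 genes, 35 reached a mean of at least 1 TPM, 9 reached 100 TPM, and 10 had no count in any library. LINC01828, a non-coding gene 0.65 Mb from MEIS1, was the highest, at 1139, 663 and 1179 TPM in EtOH and 1030, 859 and 835 TPM in Tet libraries. Its mean of 951 TPM was the 3rd highest of 16780 lncRNA genes, and its reads were 38.8% to 59.9% of all counts in the window. EtOH replicate 2 alone fell below the Tet libraries, and the other EtOH libraries lay above them.

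LINC01829 followed, with a mean of 566 TPM that ranked 7th among lncRNA genes. It runs on the opposite strand, and its span shares 188083 bases with that of LINC01828, but their exons share only 73 bases, 1.69% of the exon bases of LINC01829. The ratio of LINC01829 to LINC01828 was 0.282, 0.630 and 0.292 in the EtOH libraries and 0.762, 0.965 and 0.839 in the Tet libraries. All Tet ratios lay above all EtOH ratios, with EtOH replicate 2 closest to the Tet group.

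MEIS1 itself stood at 107, 84.3 and 106 TPM in EtOH and 120, 125 and 101 TPM in Tet libraries. ETAA1, an activator of the ATR kinase at stalled replication forks, was at a similar mean (109 against 107 TPM). LINC01798, which starts 160 bases beyond the end of MEIS1 on the same strand, averaged 165 TPM, and LINC01797, inside the span of LINC01798 on the opposite strand, averaged 147 TPM. These 4 genes ranged between 79.7 and 242 TPM over all libraries, and LINC01828 exceeded MEIS1 6.86 to 11.1 times.

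The other genes of the block were lower. MEIS1-AS2 and MEIS1-AS3, antisense to MEIS1, averaged 50.4 and 30.5 TPM. ENSG00000236605, LINC01799, ENSG00000223859 and LINC01628 averaged 52.0, 25.3, 20.4 and 7.62 TPM, and LINC01873, at the telomeric end, 1.34 TPM. The pseudogenes ENSG00000230355 and DNMT3AP1 stood at 7.95 and 0.376 TPM.

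At the telomeric end of the window, ACTR2 and RAB1A stood above the mean of MEIS1 and the other coding genes below it. ACTR2, a subunit of the actin-nucleating Arp2/3 complex, averaged 264 TPM and RAB1A, a GTPase of transport from the endoplasmic reticulum to the Golgi, 125 TPM. CEP68, a centrosome protein, and SPRED2, an inhibitor of Ras signaling, averaged 22.4 and 17.9 TPM. The non-coding genes ENSG00000232693 and LINC02576 (21.1 and 2.49 TPM) and the pseudogenes VDAC2P5 and ENSG00000273763 (8.29 and 3.51 TPM) were detected beside them, while the small RNA gene SNORA74 had no count.

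Beyond the gap on the centromeric side, PPP3R1, the regulatory subunit of the phosphatase calcineurin, averaged 84.7 TPM. ENSG00000273398, a coding gene, had 52.4 TPM. It shares 87.9% of its exon bases with other genes, DNAAF10 and PPP3R1 among them, so most of this level cannot be assigned to it alone. PNO1, a factor of small ribosomal subunit assembly, CNRIP1, a partner of the cannabinoid receptor, and C1D, a cofactor of the nuclear exosome, lay between 25.2 and 31.3 TPM. APLF, a DNA end-joining factor, DNAAF10, a dynein arm assembly factor, FBXO48, an F-box protein gene, and the prokineticin receptor gene PROKR1 had 10.9, 10.4, 5.28 and 2.76 TPM. ENSG00000273275 averaged 153 TPM, but all of its 700 exon bases lie within PPP3R1 on the opposite strand. Counting did not use strand, so its reads cannot be told apart from those of PPP3R1. PPP3R1, DNAAF10, APLF and PROKR1 share 34.5%, 31.9%, 22.9% and 38.0% of their exon bases with other genes, and RAB1A 22.9%. Their levels and fold changes therefore rest in part on shared reads.

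Genes of other tissues in the centromeric part were near 0. PLEK, known from platelets and leukocytes, and BMP10, a growth factor of the heart, had no count in any library, and ARHGAP25, a GTPase regulator of blood cells, averaged 0.00547 TPM. The gastrokine genes of the stomach, GKN2 and GKN1, averaged 0.885 and 0.555 TPM, and the related pseudogene GKN3P 5.14 TPM. Just outside the window, SLC1A4 on the telomeric side averaged 4.46 TPM and ANTXR1 on the centromeric side 485 TPM, so the centromeric bound of the window is not an edge of expression.

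Counts from the window made up 0.611% (Wilson 95% interval 0.608% to 0.614%), 0.459% (0.456% to 0.461%) and 0.623% (0.620% to 0.626%) of the EtOH libraries. The Tet libraries gave 0.663% (0.660% to 0.666%), 0.614% (0.612% to 0.617%) and 0.625% (0.622% to 0.627%), where intervals cover counting error only. The group means were 0.564% ± 0.0916 (SD, n = 3) and 0.634% ± 0.0257, and the ranges overlapped. Without LINC01828 the shares were 0.245%, 0.281% and 0.254% in EtOH and 0.359%, 0.365% and 0.348% in Tet libraries, and these ranges did not overlap. This sum was not planned, and it includes LINC01829 and LINC01798, whose values were known when the window was picked. LINC01829 alone had means of 0.0566% in EtOH and 0.123% in Tet libraries. The genes from LINC02576 to SPRED2 had means of 0.0686% and 0.0675%, and those from C1D to PROKR1 0.0348% and 0.0342%.

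**Figure D2:**
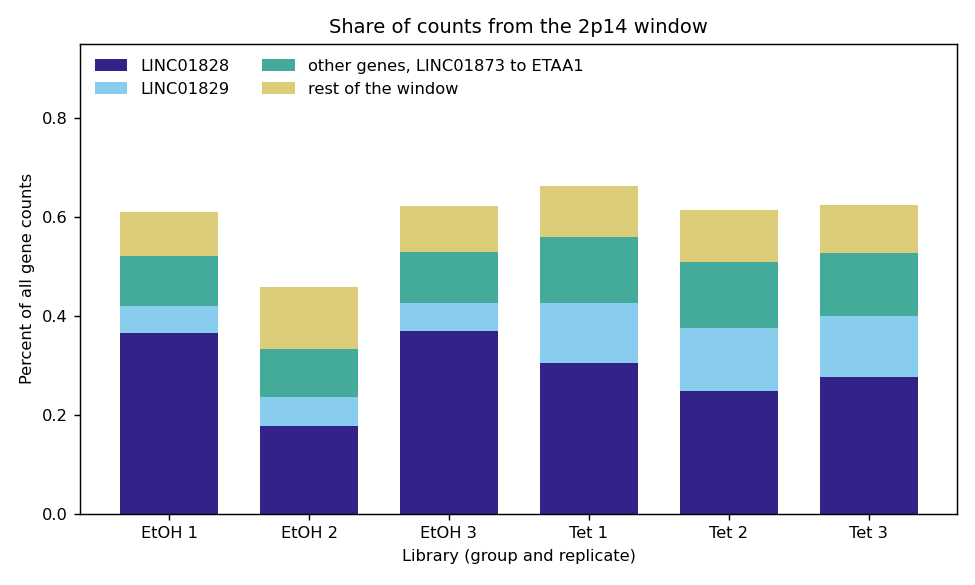
Stacked bars give the percent of all gene counts that came from LINC01828, LINC01829, the other genes from LINC01873 to ETAA1 and the rest of the window in each of the 6 libraries. EtOH replicate 2 has the smallest LINC01828 part (0.178%), and the LINC01829 part is 0.0543% to 0.0590% in EtOH and 0.122% to 0.126% in Tet libraries.

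The window took 4.12% to 5.84% of the counts of chromosome 2 while it held 1.57% of that chromosome's genes. Its summed level was 0.536 ± 0.0564 times (SD, n = 3) that of both flanks added together in EtOH libraries. In Tet libraries it was 0.586 ± 0.00506 times. With protein-coding genes alone the ratio was 0.394 and 0.391. Each flank is as long as the window, so these ratios set the window against a longer stretch. Mean sums in EtOH libraries were 2843.5 TPM for the window, 1702 TPM for the telomeric and 3661 TPM for the centromeric flank. In Tet libraries they were 3403, 1557 and 4248.5 TPM. MIR3126, a gene of 74 bases in the centromeric flank, alone averaged 1787 TPM in EtOH and 2288 TPM in Tet libraries. The stretch of 2p24 around MYCN, with 31 genes, gave 2.45% and 2.38% of counts in the 2 groups. DNA copy number was not analysed here.

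In the comparison of Tet with EtOH libraries, edgeR's quasi-likelihood test covered 36 of the 66 genes, and the other 30 were under its filter for low counts. LINC01798 and LINC01829 rose (2 of 36 with an adjusted p under 0.05, against 0.147% of all 22443 genes in this direction and 0.236% in either), and no member fell by this test, DESeq2 or limma-voom. At an unadjusted p under 0.05, 8 members were higher and 1 was lower, against 5.83% and 4.94% of all genes. Tet and EtOH libraries did not overlap in 8 members that were higher in Tet and in 2 that were lower, where 9.2% and 8.28% of all genes did so. LINC01873, 1 of the 8 by either count, passed the filter for low counts only through its Tet libraries. The median log2 fold change was 0.05 over the 36 members and −0.01 over all genes.

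LINC01829 had 516, 612 and 548 CPM in the EtOH libraries and 1204, 1317 and 1242 CPM in the Tet libraries. Every Tet library lay above every EtOH library by a wide gap. The means were 558 ± 48.8 and 1254 ± 57.7 CPM (SD, n = 3), a 2.25-fold difference (log2 fold change 1.17 ± 0.14, SE, edgeR adjusted p = 0.0307). LINC01798 had 143, 173 and 146 CPM in EtOH and 335, 301 and 331 CPM in Tet libraries, again without overlap. It was 2.10-fold higher in Tet libraries (log2 fold change 1.07 ± 0.15, edgeR adjusted p = 0.0389; 0.0505 with RLE in place of TMM scaling). Without EtOH replicate 2 the adjusted p was 0.00518 for LINC01829 and 0.00593 for LINC01798. Leaving out any other library gave between 0.133 and 0.276 for LINC01829 and between 0.157 and 0.327 for LINC01798, with log2 fold changes never below 1.09 and 0.99.

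LINC01797 had 55.6, 83.7 and 57.6 CPM in EtOH and 136, 148 and 129 CPM in Tet libraries. The groups did not overlap and the mean differed 2.10-fold, as for LINC01798, but the test did not pass the threshold (log2 fold change 1.07 ± 0.19, edgeR adjusted p = 0.0787; 0.00518 without EtOH replicate 2 and 0.00371 in DESeq2). Its exons share 615 bases with LINC01798 on the opposite strand, 32.7% of its own exon bases, and reads there cannot be assigned to one or the other. The ratio of LINC01797 to LINC01798 stayed between 0.808 and 1.02 in all 6 libraries.

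LINC01873, on the other side of MEIS1, had the largest fold of the members tested at a low level. It had 14, 7 and 7 counts in EtOH and 36, 54 and 55 counts in Tet libraries, or 0.390, 0.252 and 0.231 against 1.27, 1.52 and 1.38 CPM. The filter for low counts kept it only through its Tet libraries, and it was not tested when 10 counts were required in every library. Its values therefore describe it and give no independent support for a rise. The groups did not overlap (log2 fold change 2.23 ± 0.40, edgeR adjusted p = 0.0812; 0.0403 without EtOH replicate 2 and 0.00229 in DESeq2). ENSG00000236605 had 9.31, 3.24 and 9.51 CPM in EtOH and 13.7, 10.2 and 21.4 CPM in Tet libraries. Its groups did not overlap either, with a wide spread (log2 fold change 1.04 ± 0.43, edgeR adjusted p = 0.431). Without EtOH replicate 2 its log2 fold change was 0.69. It overlaps the exons of LINC01829 in 18.3% of its bases.

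**Figure D3:**
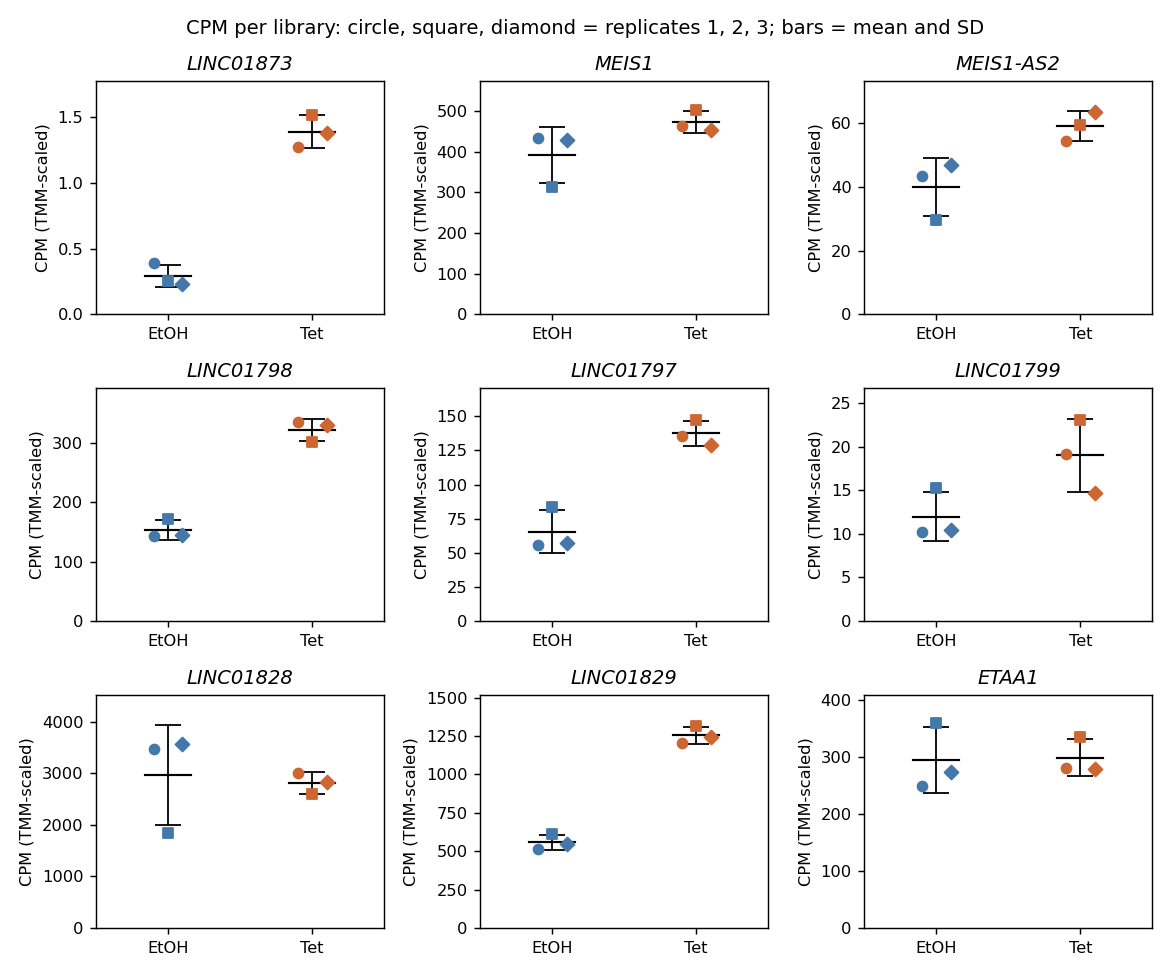
CPM of 9 genes of the block around MEIS1 in each library, with symbols for replicates 1 to 3 and black bars for the mean and SD of each group (n = 3); every axis starts at 0. LINC01873, LINC01798, LINC01797 and LINC01829 have Tet libraries well above EtOH libraries, and in LINC01828 and ETAA1 the groups overlap.

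MEIS1 had 433, 312 and 428 CPM in EtOH and 463, 503 and 453 CPM in Tet libraries. All Tet libraries lay above all EtOH libraries, but the nearest libraries of the groups were close and the difference did not pass the test (log2 fold change 0.27 ± 0.17, edgeR adjusted p = 0.630). Without EtOH replicate 2 the log2 fold change was 0.14. The ratio of LINC01798 to MEIS1 was 0.922, 1.55 and 0.953 in the EtOH libraries and 2.02, 1.68 and 2.04 in the Tet libraries, so that the downstream non-coding gene stood higher against MEIS1 in every Tet library.

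MEIS1-AS2, with 54.0% of its exon bases shared with MEIS1, had 43.5, 29.5 and 46.8 CPM in EtOH and 54.5, 59.5 and 63.6 CPM in Tet libraries (log2 fold change 0.57, edgeR adjusted p = 0.341). MEIS1-AS3, whose start overlaps that of MEIS1 by 19 bases on the other strand, had a log2 fold change of −0.02, and of −0.17 without EtOH replicate 2. LINC01799 had 10.2, 15.3 and 10.5 CPM in EtOH and 19.2, 23.1 and 14.7 CPM in Tet libraries, where the lowest Tet library fell below the highest EtOH library (log2 fold change 0.66, edgeR adjusted p = 0.375).

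LINC01828, the most abundant member, had no detectable difference. It had 3477, 1847 and 3569 CPM in EtOH and 3009, 2599 and 2819 CPM in Tet libraries, and the Tet libraries lay inside the EtOH range (log2 fold change −0.08 ± 0.25, edgeR adjusted p = 0.957; −0.32 without EtOH replicate 2). ETAA1, whose start lies within the span of LINC01829 with an overlap of 659 bases on the opposite strand, had 249.97, 360 and 275 CPM in EtOH and 281, 336 and 278 CPM in Tet libraries (log2 fold change 0.02 ± 0.18; 0.19 without EtOH replicate 2). Over the 14 tested genes from LINC01873 to ETAA1, 12 had a positive log2 fold change, and the median was 0.59 against −0.01 over all genes. In 7 the Tet level was higher at an unadjusted p under 0.05 in edgeR, against 5.83% of all genes. The 7 include LINC01873, which passed the filter for low counts only through its Tet libraries. They are not all separate, since LINC01797 shares exon bases with LINC01798, ENSG00000236605 with LINC01829 and MEIS1-AS2 with MEIS1. This block was delimited after its levels were seen, so these counts describe it and test nothing.

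Outside the block, 22 genes were tested with a median log2 fold change of −0.09, 8 above 0 and 14 below. SPRED2 had 37.5, 46.7 and 37.8 CPM in EtOH and 34.1, 30.8 and 28.3 CPM in Tet libraries, without overlap (log2 fold change −0.39 ± 0.16, edgeR adjusted p = 0.443). CNRIP1, at 38.8, 42.8 and 39.3 against 33.1, 29.6 and 33.2 CPM, also did not overlap (log2 fold change −0.33, adjusted p = 0.465 in edgeR). APLF stood on the other side, at 24.4, 23.1 and 24.9 CPM in EtOH and 35.7, 26.3 and 37.1 CPM in Tet libraries (log2 fold change 0.45, adjusted p = 0.409 in edgeR). VDAC2P5, LINC02576 and ENSG00000232693 had the lowest log2 fold changes among members of at least 1 CPM, −0.89, −0.79 and −0.48, with overlapping groups. Each depended on 1 library: the values were −0.33 for VDAC2P5 without EtOH replicate 1, −0.37 for LINC02576 without Tet replicate 2 and −0.19 for ENSG00000232693 without EtOH replicate 2.

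The coding members lay closer to 0. Over 16 tested coding genes the log2 fold change ran from −0.39 to 0.45 with a median of −0.0031, and none passed the adjusted threshold in edgeR, DESeq2 or limma-voom, while SPRED2 and APLF had an unadjusted p under 0.05 in edgeR. The abundant genes ACTR2, RAB1A and PPP3R1 had values of −0.02, 0.19 and 0.09, which became 0.19, 0.44 and 0.43 without EtOH replicate 2. Those of CEP68, C1D, DNAAF10, PNO1, FBXO48 and PROKR1 lay between −0.35 and 0.15, each with overlapping groups. Without EtOH replicate 2 those of these 6 genes ran from −0.68 for PROKR1 to 0.50 for CEP68.

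**Figure D4:**
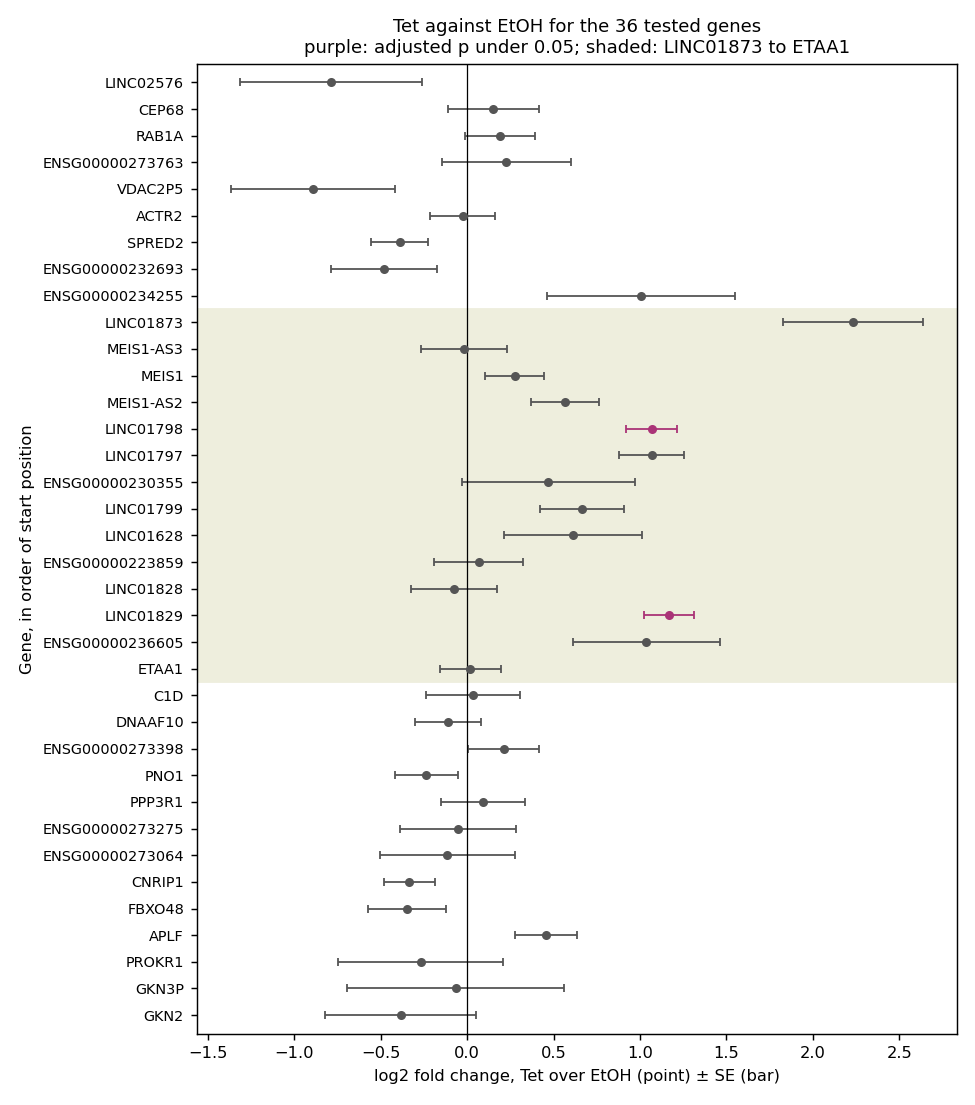
Points give the log2 fold change of Tet over EtOH libraries for the 36 tested genes in order of position, with SE bars, purple where the edgeR adjusted p is under 0.05 and a shaded band from LINC01873 to ETAA1. LINC01798 and LINC01829 are the purple points, LINC01873 reaches 2.23, and genes outside the band scatter around 0.

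RefSeq promoter windows on GRCh38.p14, which run from 250 bases before a gene's start to 50 after, were found for 28 of the 66 members. Those of LINC01829, which rose, and of LINC01873 and LINC01799, non-coding genes of the same block, are printed 5′ to 3′ on the strand of the gene. The E-box CACGTG, the motif that MYC proteins bind, and TGACAG, a core bound by MEIS proteins, were searched on both strands. Capitals mark TGACAG.
LINC01829: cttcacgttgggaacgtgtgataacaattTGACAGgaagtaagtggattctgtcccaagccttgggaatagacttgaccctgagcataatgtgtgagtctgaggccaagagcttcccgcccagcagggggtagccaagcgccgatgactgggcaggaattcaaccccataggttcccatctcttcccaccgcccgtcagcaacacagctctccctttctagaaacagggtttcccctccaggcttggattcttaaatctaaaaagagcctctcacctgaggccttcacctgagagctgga
LINC01873: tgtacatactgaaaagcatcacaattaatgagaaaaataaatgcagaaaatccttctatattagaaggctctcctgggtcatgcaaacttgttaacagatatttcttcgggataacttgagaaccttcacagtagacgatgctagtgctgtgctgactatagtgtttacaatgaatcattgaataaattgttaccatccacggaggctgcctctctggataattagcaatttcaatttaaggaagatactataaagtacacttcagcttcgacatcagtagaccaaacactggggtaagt
LINC01799: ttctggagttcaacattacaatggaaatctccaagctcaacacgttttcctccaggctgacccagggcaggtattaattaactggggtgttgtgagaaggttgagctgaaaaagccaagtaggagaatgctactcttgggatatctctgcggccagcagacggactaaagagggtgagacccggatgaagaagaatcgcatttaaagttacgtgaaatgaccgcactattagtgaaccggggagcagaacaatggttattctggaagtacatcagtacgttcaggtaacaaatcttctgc
The windows are chr2:67215270-67215569 on the minus strand for LINC01829, chr2:66383056-66383355 on the plus strand for LINC01873 and chr2:66904186-66904485 on the plus strand for LINC01799.

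TGACAG occurred once in the LINC01829 window, 221 bases before the start, and in neither of the other windows shown. Of 35116 promoter windows of the same 300 bases, 15.8% held it. CACGTG was in none of the windows of LINC01829, LINC01873, LINC01799, MEIS1, MEIS1-AS3 and ETAA1, while 7.26% of all windows held it. The RefSeq start of LINC01829 lies inside the gene as the count tables define it, so the window is not that of the first exon counted.

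The TALE genes, which encode MEIS1 and its partners and relatives, were read from a list of 18. Of these 11 were tested, none passed the adjusted threshold in edgeR, DESeq2 or limma-voom, and at an unadjusted p under 0.05 none was higher and 1, TGIF2, was lower (log2 fold change −0.62, edgeR adjusted p = 0.396). MEIS1 was the most abundant of them at 107 TPM, followed by MEIS2 (41.5) and PBX3 (32.7). MEIS2 had a log2 fold change of −0.33, PBX2, PKNOX1, TGIF1 and MEIS3 lay between 0.22 and 0.35, and PBX3, IRX3 and IRX5 between −0.09 and 0.02. The median over the tested TALE genes was 0.22.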

How the data were processed

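Total RNA of 6 libraries, 3 labelled EtOH and 3 labelled Tet, was sequenced after ribosomal RNA depletion. The deposited tables hold estimated counts per gene: per the file headers and the submitters' processing notes, the authors aligned read pairs to GRCh38 with STAR 2.7.1a and counted unique alignments to GENCODE genes with featureCounts (1.6.4 in the headers, 1.5.1 in the notes), giving reads on overlapping genes in fractions and not using strand although the kit keeps it. Overlapping genes therefore share reads.

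Counts were rounded and fitted over all genes with edgeR 4.0.16 (filterByExpr, TMM, quasi-likelihood F test, Benjamini-Hochberg, threshold 0.05), which left 22443 genes, and the procedure was tested on simulated data. The model had the group alone. SE is the log2 fold change divided by the square root of F. Levels between genes are TPM from the tables' gene lengths; comparisons between groups are CPM. DESeq2 1.42.0, limma-voom 3.58.1, other scalings and filters, a replicate block and leaving out each library were alternatives. Biotypes came from GENCODE v44, whose coordinates equalled the tables' for 53025 of 53026 identifiers of the same version.

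Members and lists were chosen with earlier results of these data known. Genes named are MEIS1, LINC01798 and LINC01829, members with a mean of at least 1 TPM or past the threshold, the 3 largest rises and falls among tested members with a mean of at least 1 CPM, MYCN, DDX1, NBAS, tested TALE genes, and genes at the edges of the window and of the gaps; a few members at or near 0 (PLEK, BMP10, ARHGAP25, GKN1, GKN2, SNORA74, DNMT3AP1) were named after their values were seen.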

Additional observations from a re-analysis of the deposited data

How the results depend on the processing

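The number of members higher in Tet libraries was 2 as reported, 1 with RLE scaling and 4 without a filter on low counts. It was 4 with DESeq2 and 4 with DESeq2 on the genes edgeR tested (chosen after seeing the data). Over all genes these settings called 53, 40, 302, 499 and 606 in either direction. At an unadjusted p under 0.05 in edgeR, 8 members were higher and 1 was lower, against 5.83% and 4.94% of all genes. Leaving out each library gave 0 to 4 members. Without EtOH replicate 2 these were LINC01797, LINC01798, LINC01829 and LINC01873, where 692 genes were called over all. Without any of the other libraries it was 0, where 0 to 2 genes were called over all. The cause was not tested. With RLE scaling LINC01798 had an adjusted p of 0.0505. LINC01829 and LINC01798 kept a positive log2 fold change in every alternative run. The count of members lower in Tet libraries was 0 in the other alternatives and in each leave-one-out fit, where it also ran from 0 to 0.

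With the replicate number as a block, 5 members were called, the 4 named here and ENSG00000236605, while 675 genes were called over all. The correlations of deviations between libraries of the same number were 0.0603, 0.510 and 0.219. Replicate 2 of both groups and EtOH replicate 3 correlated best with their own number, and the other libraries did not. Whether libraries of the same number were paired cannot be told from these values.

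The median log2 fold change over members was 0.037 to 0.19 when each library was left out, the highest without EtOH replicate 2. The share of counts was 0.535% to 0.617% in EtOH and 0.620% to 0.644% in Tet libraries when each was left out. Without mitochondrial genes it was 0.679%, 0.478% and 0.681% in the EtOH libraries and 0.712%, 0.653% and 0.688% in the Tet libraries, whose mean was 0.684%. The ratio of the window to its flanks was 0.625 (EtOH) and 0.666 (Tet) with CPM and 0.394 and 0.391 with coding genes, and 0.511 to 0.567 and 0.583 to 0.588 when each library was left out.

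Changes of sign were limited to members with an adjusted p above 0.8 as reported. With limma-voom the log2 fold change was 0.00068 for ACTR2, 0.075 for ENSG00000273275 and 0.23 for GKN3P, and with the block 0.060 for ENSG00000273275 and 0.17 for GKN3P. Leaving out each library gave −0.035 to 0.50 for CEP68, −0.32 to 0.056 for LINC01828, −0.11 to 0.19 for ETAA1, −0.22 to 0.33 for C1D, −0.10 to 0.43 for PPP3R1, −0.68 to 0.18 for PROKR1, −0.53 to 0.34 for GKN3P, −0.065 to 0.46 for ENSG00000273763, −0.16 to 0.19 for ACTR2, −0.069 to 0.21 for ENSG00000223859, −0.22 to 0.027 for DNAAF10, −0.31 to 0.49 for ENSG00000273275, −0.17 to 0.12 for MEIS1-AS3 and −0.40 to 0.13 for ENSG00000273064. Over 506 values of 34 named genes, 449 kept their direction and their side of the threshold. Of the 30 members under the filter, 10 had no count in any library; without the filter 55 members were tested.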
